A study of Sus scrofa with 6 samples.

Results

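The genes described here encode proteins of the cytosolic ribosome or paralogs of such proteins. They were chosen by name: every Ensembl pig gene ID whose symbol is RPL or RPS with a number, with or without a paralog ending, or RPLP0, RPLP1, RPLP2 or RPSA. The 10 RPS6K kinases, which act on ribosomal protein S6 and are no part of the ribosome, were left out, as were the MRPL and MRPS genes of the mitochondrial ribosome. This gave 28 of 25322 gene IDs, of which 13 were counted to the large subunit and 15 to the small subunit by their symbol alone, paralogs included. RPLP0, RPSA and many further ribosomal proteins had no ID paired with their symbol and were not analysed here, so the 28 are a part of the ribosome and not all of it.

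The cytosolic ribosome joins a small subunit, which reads the mRNA, to a large subunit, which forms the peptide bond. Each ribosome holds a single copy of nearly every ribosomal protein, and the genes are among the most strongly transcribed in most cells. Their mRNAs share a pyrimidine-rich 5′ end through which growth signals control their translation. mRNA levels, the quantity measured here, therefore do not give the rate at which the proteins are made. Several members also have a close paralog, and mammalian genomes carry many processed copies of these genes, so part of their reads aligns to more than 1 place.

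RNA sequencing covered fat, liver and muscle of 2 pig breeds (Sus scrofa), Berkshire and Korean native pig, with 1 library for each of the 6 combinations. No treatment is given, and the sources used here give no age, sex, fat depot or muscle. The title counts 3 per breed, which can be read as pigs or as tissues, so it is open how many animals stand behind the libraries, and whether the libraries of a breed share one. A p-value therefore measures only the spread among these libraries, and the breed and the individual animal cannot be told apart.

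A library held between 5897407 and 7912093 counts on genes. The labelled tissues carried their markers. The 6 hepatocyte markers (among them ALB, TF and CPS1) summed to 213642 and 246274 CPM in the liver libraries and to between 26.6 and 64.4 CPM elsewhere. All 6 skeletal muscle markers matched, and their sum was 100022 and 149626 CPM in muscle against 83.0 to 118 CPM elsewhere. The 4 matched adipocyte markers of 6 (without ADIPOQ and FABP4) had a summed level of 4416 and 3384 CPM in fat. It was 27.4 and 30.3 CPM in the liver libraries and 523 and 315 CPM in those of muscle. In tissue RNA, fewer cells of a type and less RNA per cell cannot be told apart.

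Ribosomal protein genes took the largest part of the transcriptome in fat and the smallest in liver. The members held 1.18% of the counts on genes in Berkshire fat (95% exact binomial interval 1.17% to 1.19%) and 1.07% in Korean native fat (1.06% to 1.07%). In liver they held 0.412% (0.407% to 0.417%) and 0.456% (0.451% to 0.461%) in the same breed order. In muscle they held 0.666% (0.659% to 0.672%) and 0.902% (0.895% to 0.910%). The tissues did not overlap, and the mean share was 1.12% ± 0.0783 (SD, n = 2) in fat, 0.434% ± 0.0313 in liver and 0.784% ± 0.167 in muscle. With 2 libraries a tissue no exact test of the share could pass, so none was made. The intervals cover counting error only.

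A share of counts falls when a few other genes take many reads. The 20 most abundant genes that are not members took 19.5% (Berkshire) and 23.5% (Korean native) of gene counts in fat, 35.5% and 39.3% in liver, against 33.0% and 36.6% in muscle. TMM scaling, which sets libraries to each other by a trimmed mean over genes, lowers the weight of such genes. On TMM-scaled CPM the members summed to 7300 and 7017 in Berkshire and Korean native fat, 5223 and 5980 in liver, against 7288 and 12274 in muscle. Liver was again lowest. Fat and Berkshire muscle then lay close together, and Korean native muscle stood above the other 5 libraries.

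**Figure D1:**
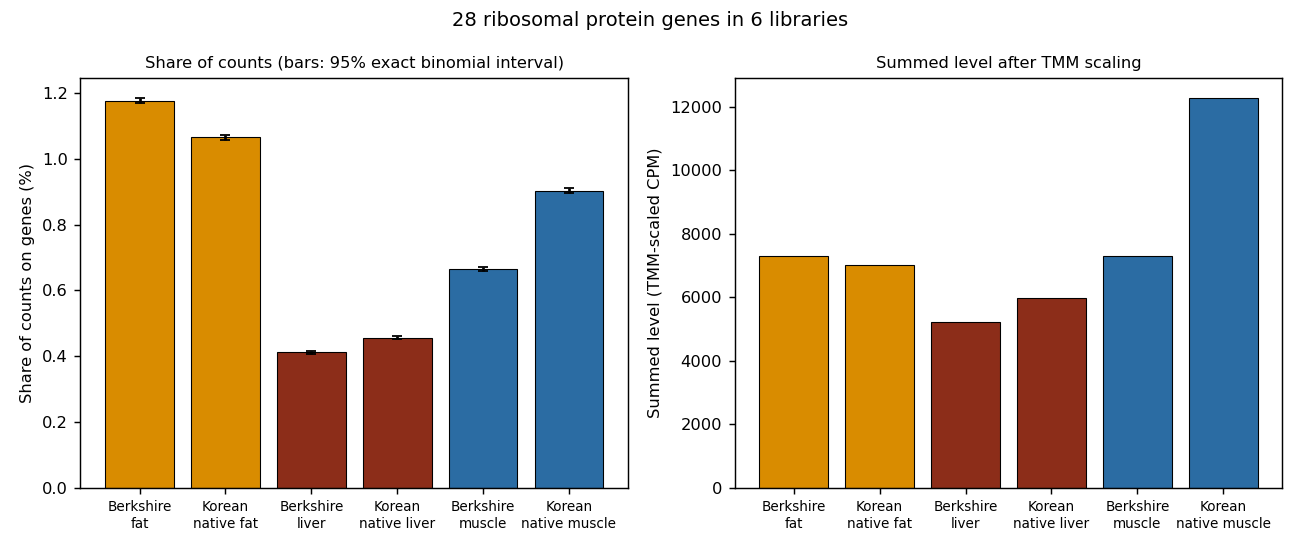
Bars give the share of counts on genes (%, left, with 95% exact binomial intervals) and the summed TMM-scaled CPM (right) of the 28 genes in each of 6 libraries, coloured by tissue. Liver is lowest on both scales, fat leads on the left (1.18% and 1.07%), and Korean native muscle leads on the right (12274 CPM).

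Among the members with counts, RPL5 and RPL4 of the large subunit and RPS4X of the small subunit had the highest mean TMM-scaled CPM over the 6 libraries. In Korean native muscle RPLP1 had the most counts (7089, against 7000 for RPL4, 5701 for RPL5 and 4092 for RPS4X). RPL5 carries the 5S rRNA into the ribosome together with RPL11, and both can bind the p53 regulator MDM2 when outside the ribosome. RPL4 lines the tunnel through which the new peptide leaves. RPS4X is encoded on the X chromosome. In Berkshire and Korean native libraries RPL4 (ENSSSCG00000004945) stood at 832 and 910 TMM-scaled CPM in fat, 683 and 743 in liver, against 963 and 1615 in muscle. RPL5 (ENSSSCG00000006899) stood at 774 and 782 in fat, 898 and 1132 in liver, against 954 and 1315 in muscle. RPS4X (ENSSSCG00000012405) stood at 764 and 828 in fat, 562 and 671 in liver, against 728 and 944 in muscle. RPL4 and RPS4X were lowest in liver, while RPL5 was lowest in fat. RPL11 (ENSSSCG00000024260), its partner on the 5S rRNA, had 413 and 416 CPM in fat, and 441 and 520 CPM in muscle. Its liver values of 360 and 509 CPM spanned both fat values and overlapped with muscle.

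At the other end were RPS21, RPL26L1 and RPL36AL. RPS21 (ENSSSCG00000021825) had 60 to 131 counts a library and 9.27 to 19.6 CPM, and RPL26L1 (ENSSSCG00000016989), a paralog of RPL26, had 12.1 to 20.5 CPM. RPL10L (ENSSSCG00000005001) had 0 counts in all 6 libraries. It is a paralog of RPL10 known from the testis, and a count of 0 allows up to 0.294 to 0.692 CPM by library, the value of 3 counts. These numbers are reads per gene and are not corrected for transcript length, so they do not rank the genes by mRNA copies.

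**Figure D2:**
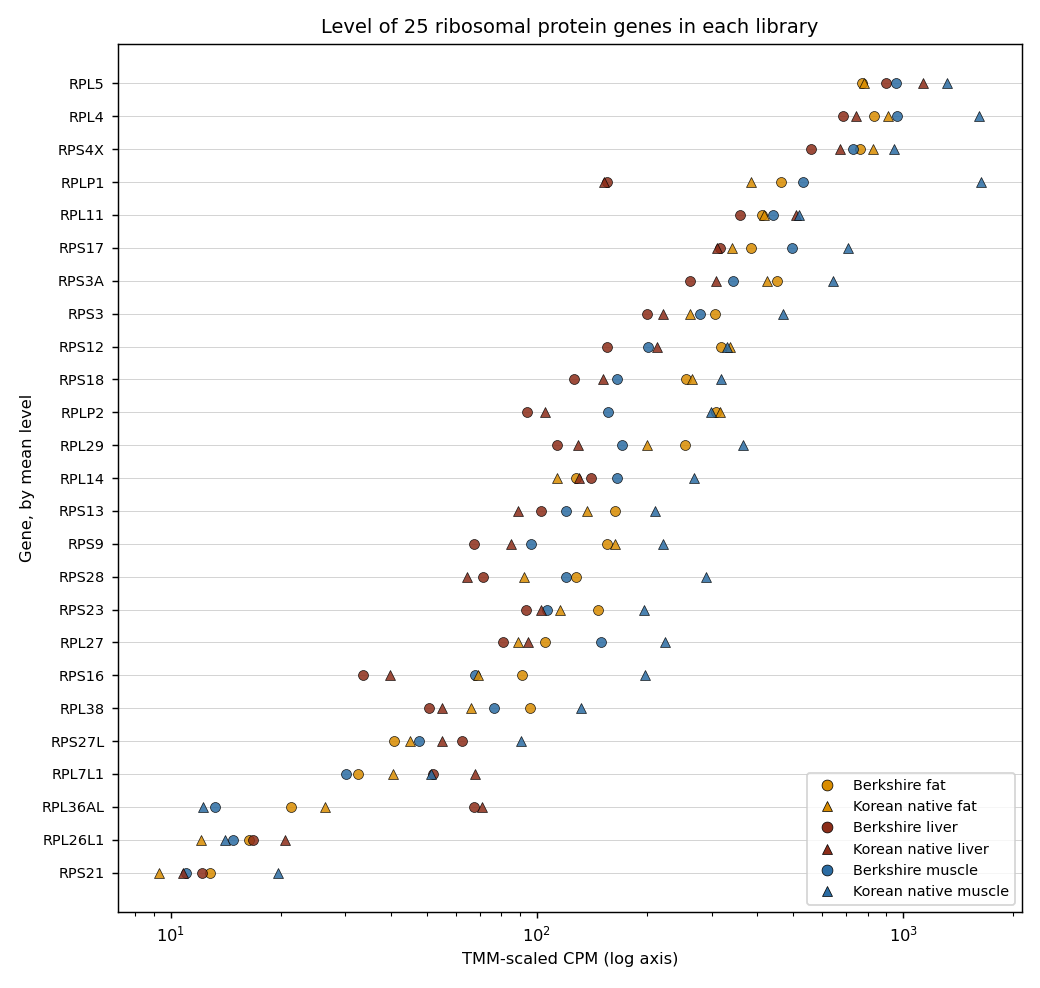
Points give TMM-scaled CPM (log axis) of 25 genes in each of 6 libraries, with tissue as colour, circles for Berkshire and triangles for Korean native pigs, and genes ordered by mean CPM, not corrected for length. Liver lies at the left in most rows, RPL36AL has its highest points in liver (67.4 and 70.6 CPM), and RPLP1 spans from 152 CPM in liver to 1635 CPM in Korean native muscle.

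The first comparison asked how the tissues differ, in a model of tissue and breed over all genes. The 27 members with counts passed the filter on low counts. Liver tended to the low side: against fat, 19 of 27 members had a negative log2 difference, with a median of -0.43, and against muscle 24 of 27, with a median of -0.77. Few of these differences passed the test. Against fat RPL36AL was higher and RPLP2 lower in liver, and no further member was called by edgeR. Over all 13810 genes tested, 28.7% were called, 15.2% higher and 13.5% lower in liver than in fat. Against muscle 1 member was higher and 6 were lower in liver, where 35.9% of all genes were called, 18.6% higher and 17.4% lower. Between muscle and fat 0 members were called by edgeR, 2 had an unadjusted p under 0.05, and DESeq2 and limma-voom also called 0. Of all genes 9.95% were called higher and 6.43% lower in muscle than in fat.

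RPL36AL was the member that stood out in liver. It encodes a near-identical copy of RPL36A, a large subunit protein, and the ID of the parent gene was not matched. RPL36AL (ENSSSCG00000005006) reached 67.4 CPM in the Berkshire liver library and 70.6 CPM in the Korean native one. In the same breed order it had 21.3 and 26.4 in fat, and 13.2 and 12.2 in muscle. Both liver libraries lay above both fat libraries, and both of these above both muscle libraries. Against fat, RPL36AL was 1.53 ± 0.30 (SE) higher in liver on the log2 scale with an edgeR adjusted p of 0.0089, and against muscle 2.44 ± 0.31 higher with an adjusted p of 0.0012. The difference between muscle and fat, -0.90 ± 0.30, did not pass (adjusted p 0.085). Against fat the call ended without Berkshire fat, at 1.38 with an adjusted p of 0.081, and with total-count scaling, at 0.52 with an adjusted p of 0.19. Against muscle it held without any 1 of the 6 libraries. Reads that fit both RPL36AL and RPL36A would not have been counted as unique, so the level is uncertain.

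RPLP1 and RPLP2 encode the small acidic proteins of the ribosomal stalk, which recruits the factors that drive elongation. They pair with each other on the ribosome. RPLP2 (ENSSSCG00000012842) had 308 CPM in Berkshire fat and 316 CPM in Korean native fat. In the same order it had 93.8 and 105 CPM in liver and 157 and 298 CPM in muscle, with no overlap between tissues. It was 1.66 lower on the log2 scale in liver than in fat (-1.66 ± 0.36, adjusted p 0.015) and lower in liver than in muscle (-1.14 ± 0.36, adjusted p 0.045). The first call ended without Berkshire fat (-1.39), Berkshire liver (-1.83) or Korean native liver (-1.51). The second ended without Berkshire fat (-1.13), Korean native fat (-1.13), Berkshire liver (-1.30), Korean native liver (-0.99) or Korean native muscle (-0.71), while it held without Berkshire muscle. Without a fat library the estimate hardly moved, and such fits have fewer than the 2 residual degrees of freedom of the full fit.

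RPLP1 (ENSSSCG00000004970) followed another order. Its level in fat was 464 CPM (Berkshire) and 384 CPM (Korean native). The liver libraries had 156 and 152 CPM and the muscle libraries 534 and 1635 CPM, in that order. Liver lay below both other tissues and muscle above fat, and the muscle libraries were far apart. The difference between liver and muscle was -2.70 ± 0.55 with an adjusted p of 0.0087, and it kept its call without each library in turn, at -1.72 without Korean native muscle. Against fat the liver value was -1.48 ± 0.52 (adjusted p 0.072), and muscle differed from fat by 1.22 ± 0.53 (adjusted p 0.15). Neither passed. Liver against fat was called by DESeq2 (-1.52, adjusted p 0.026), and by edgeR with no filter (-1.52), upper quartile factors (-1.77), total counts (-2.49) or without Berkshire muscle (-1.56) or Korean native muscle (-1.46), and muscle against fat by edgeR without Berkshire muscle (1.92, adjusted p 0.026). Within a library RPLP1 had 1.51 and 1.21 times the counts of RPLP2 in Berkshire and Korean native fat, 1.66 and 1.45 times in liver, and 3.41 and 5.49 times in muscle. The ratio, which does not depend on how libraries are scaled, was thus higher in both muscle libraries than in the other 4.

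Further members called between liver and muscle included RPS16, RPS28 and RPL27. RPS16 reaches with its tail toward the site where the tRNA meets the mRNA, and RPS28 sits where the mRNA leaves the small subunit. RPS16 (ENSSSCG00000020817) had 33.4 and 39.6 CPM in liver, 67.9 and 197 in muscle, against 91.0 and 69.2 in fat, in the order Berkshire and Korean native. RPS28 (ENSSSCG00000013597) had 71.0 and 64.3 in liver, 120 and 289 in muscle, against 128 and 92.3 in fat. For both, the lower liver values did not overlap with muscle, and the higher muscle value was that of the Korean native library.

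RPS16 differed between liver and muscle by -1.77 ± 0.49 (adjusted p 0.028) and RPS28 by -1.55 ± 0.47 (adjusted p 0.039). Both calls ended without Korean native liver (-1.59 and -1.26) or Korean native muscle (-0.85 and -0.68). RPL27 (ENSSSCG00000025507), of the large subunit, had 80.8 and 94.8 CPM in liver and 150 and 224 in muscle, a difference of -1.08 ± 0.33 (adjusted p 0.042). This call lay near the threshold: among the fits that left out 1 library, it held without Berkshire muscle and ended without each of the other 5, with log2 values of -1.11 to -0.77.

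The count of called members changed when a library was left out. The share of all genes called was not computed for those fits, so a change over all genes cannot be told from one of the members. Those fits also have fewer than the 2 residual degrees of freedom of the full fit. A call can therefore end while its estimate stays nearly the same. Between liver and muscle 7 members were called over all libraries, but 4 without Berkshire fat, Korean native fat or Berkshire liver, 12 without Berkshire muscle, and 2 when either the liver or the muscle library of the Korean native pig was left out. Between liver and fat the count of 2 became 0 without Berkshire fat, 1 without Berkshire or Korean native liver, 7 without Berkshire muscle, and 6 where Korean native muscle was left out. Muscle against fat went from 0 to 2 without Berkshire muscle.

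**Figure D3:**
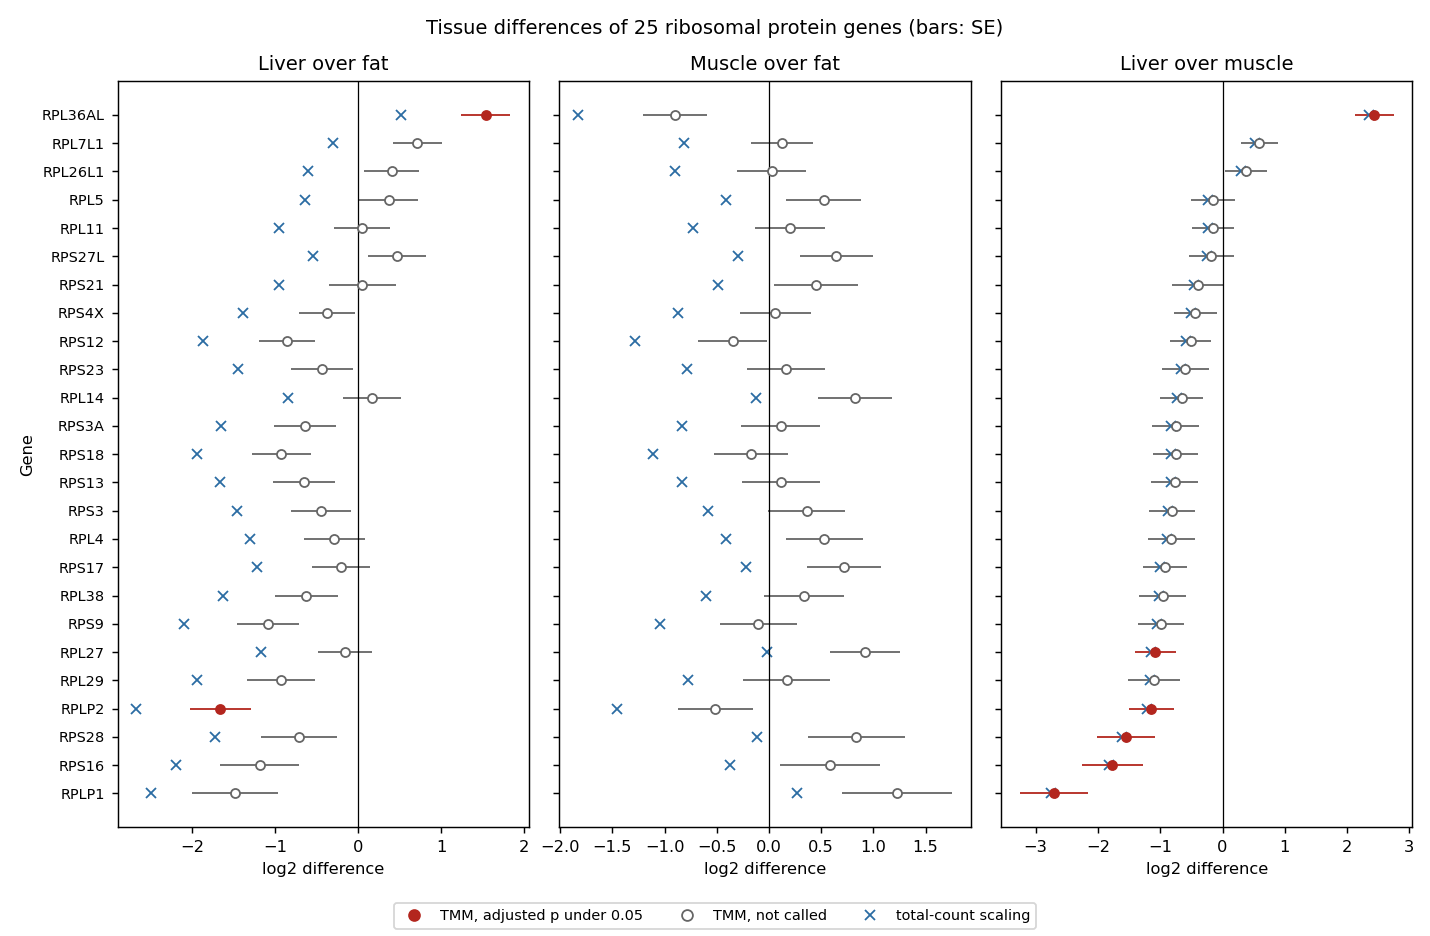
Each row is 1 of 25 genes and each panel 1 tissue comparison, with the log2 difference under TMM scaling (circles, bars ± SE, filled red where the adjusted p is under 0.05) and under total-count scaling (crosses). RPL36AL lies at 1.53 and 2.44 in the liver panels and RPLP1 at -2.70 in liver over muscle, and the crosses lie to the left of the circles in both comparisons with fat.

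Differences from fat depended on how libraries were scaled. With total gene counts in place of TMM factors, the median of all genes moved from 0.06 to -0.94 between liver and fat and from -0.05 to -0.98 between muscle and fat. The members' median moved with it, from -0.43 to -1.44 and from 0.34 to -0.61. Then 19 members were called lower in liver than in fat and 0 higher, where 42% of all genes were called lower and 8.39% higher. In muscle, 5 members (RPS18, RPS12, RPL36AL, RPLP2 and RPS9) were called lower than in fat and 0 higher, against 38.1% and 5.54% of all genes. Between liver and muscle the total-count fit called 1 member higher and 7 lower, against 16.8% and 18.5% of all genes. A change of library size shifts all genes of a comparison by nearly the same amount. The distance of the members to the median gene was therefore bound to stay, and its agreement under both scalings is no support. Relative to that median the members lay at -0.49 with TMM factors and -0.50 with total counts for liver against fat. They lay at 0.39 and 0.37 for muscle against fat, and at -0.76 and -0.74 for liver against muscle. The sign between muscle and fat thus turned with the scaling, and 22 of 27 members lay above the median gene under both. Between liver and muscle, 3 of 27 lay above the median gene under both scalings.

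Counted without a test, both fat libraries lay above both liver libraries for 18 of 27 members with TMM scaling (32.9% of all genes) and for 26 with total counts (69% of all genes), where RPL36AL was the exception. Both liver libraries lay above both fat libraries for 6 members (37.3% of all genes), namely RPL36AL, RPL5, RPL14, RPL26L1, RPS27L and RPL7L1. Both muscle libraries lay above both liver libraries for 19 members (34.2% of all genes) and for 22 with total counts (36.5%). Both liver libraries lay above both muscle libraries for 3 members, RPL36AL, RPL26L1 and RPL7L1 (34.4% of all genes), and with total counts for 2, RPL36AL and RPL7L1 (30.9%). Muscle lay above fat for 9 members (30.6% of all genes) with TMM scaling, while with total counts fat lay above muscle for 18 (67.1%). The order fat, muscle, liver from high to low in both breeds was seen for 2 members, RPS12 and RPLP2 (8.73% of all genes), and for 14 with total counts (23.3%).

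Between liver and fat the median was -0.06 over the 12 tested large subunit members, of which 6 had positive values, and -0.64 over the 15 of the small subunit, of which 2 had. Between liver and muscle it was -0.74 and -0.77. The difference between the subunits was not tested, and both groups include paralogs. In liver over fat the paralogs RPL36AL (1.53), RPL7L1 (0.71) and RPL26L1 (0.40) were among the positive large subunit values. The others were RPL5 (0.37), RPL14 (0.17) and RPL11 (0.05). In the small subunit the paralog RPS27L (0.47) and RPS21 (0.05) were positive. Medians without paralogs were not computed. Large subunit members took 47.2% and 47.8% of the family's counts in Berkshire and Korean native fat, 51.9% and 53.7% in liver, against 50.3% and 52.5% in muscle.

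The next comparison asked which members changed relative to the rest of the family. Here the summed counts of the members served as library size, so that the result did not depend on how the tissues were scaled to each other. Few members were called, while log2 values over all members ran from -1.30 to 1.87 for liver against fat, from -1.29 to 0.78 for muscle against fat and from -1.88 to 3.16 for liver against muscle. Between liver and fat RPL36AL was called higher (1.87 ± 0.45, adjusted p 0.013) and 0 members lower, where 16.3% and 8.12% of all genes were called higher and lower on this scale. Between liver and muscle RPL36AL (3.16 ± 0.48, adjusted p 7.2e-04) and RPL7L1 (1.35 ± 0.41, adjusted p 0.026) were called higher and RPLP1 lower (-1.88 ± 0.53, adjusted p 0.020), against 27.5% and 8.79% of all genes. Between muscle and fat 0 members were called by edgeR, with 1 at an unadjusted p under 0.05, where 5.68% and 6.52% of all genes were called higher and lower. DESeq2 and limma-voom were not run on this scale, and the share of all genes called was not computed for the fits without a library. RPL36AL against muscle kept its call without each library. The other calls did not: RPLP1 lost its call without Berkshire liver (-2.14), Korean native liver (-1.59) or Korean native muscle (-1.30), RPL7L1 without the same 3 (1.34, 1.36 and 1.23), and RPL36AL against fat without Berkshire fat (1.49), Berkshire liver (1.91) or Korean native liver (1.82). Without Berkshire muscle 4 members were called between liver and fat, 1 between muscle and fat and 6 between liver and muscle. Without Korean native muscle 4 were called between liver and fat. Between breeds 0 members were called on this scale by edgeR, with 0 at an unadjusted p under 0.05, against 0.0434% of all genes higher and 0.101% lower.

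In shares of the family's counts, RPL36AL made up 1.29% in the Berkshire and 1.18% in the Korean native liver library, 0.292% and 0.377% in fat, and 0.181% and 0.0996% in muscle. RPL7L1 (ENSSSCG00000026472), a paralog of RPL7 found on large subunits during their assembly, made up 0.996% and 1.13% in liver, 0.444% and 0.576% in fat, and 0.412% and 0.419% in muscle. On TMM-scaled CPM its values were 52.0 and 67.8 in liver, 32.4 and 40.4 in fat, and 30.0 and 51.4 in muscle, and the differences of liver from fat (0.71 ± 0.29, adjusted p 0.12) and from muscle (0.59 ± 0.30, adjusted p 0.17) did not pass. RPLP1 made up 2.98% and 2.54% of the family in liver, 6.36% and 5.47% in fat, and 7.32% and 13.3% in muscle. RPLP2 made up 1.80% and 1.76% in liver, 2.15% and 2.43% in muscle, against 4.22% and 4.51% in fat.

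The 5S rRNA carriers RPL5 and RPL11 took a larger part of the family in liver than in the other tissues. RPL5 made up 17.2% in the Berkshire and 18.9% in the Korean native liver library, 10.6% and 11.1% in fat, and 13.1% and 10.7% in muscle. RPL11 made up 6.88% and 8.52% in liver, 5.65% and 5.93% in fat, and 6.06% and 4.23% in muscle. The liver values did not overlap with the others, but neither gene was called on this scale (adjusted p 0.32 and 0.57 against fat, 0.37 and 0.37 against muscle). RPS27L (ENSSSCG00000023158), a paralog of RPS27 and a p53 target, made up 1.20% and 0.923% in liver, 0.557% and 0.644% in fat, and 0.653% and 0.737% in muscle, and it was not called either. A higher share in both liver libraries was not particular to these genes. It was also seen for RPL36AL and RPL7L1 and for members of low counts. RPL26L1 made up 0.322% and 0.344% in liver and at most 0.224% elsewhere. RPS21 made up 0.234% and 0.180% in liver and at most 0.176% elsewhere.

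**Figure D4:**
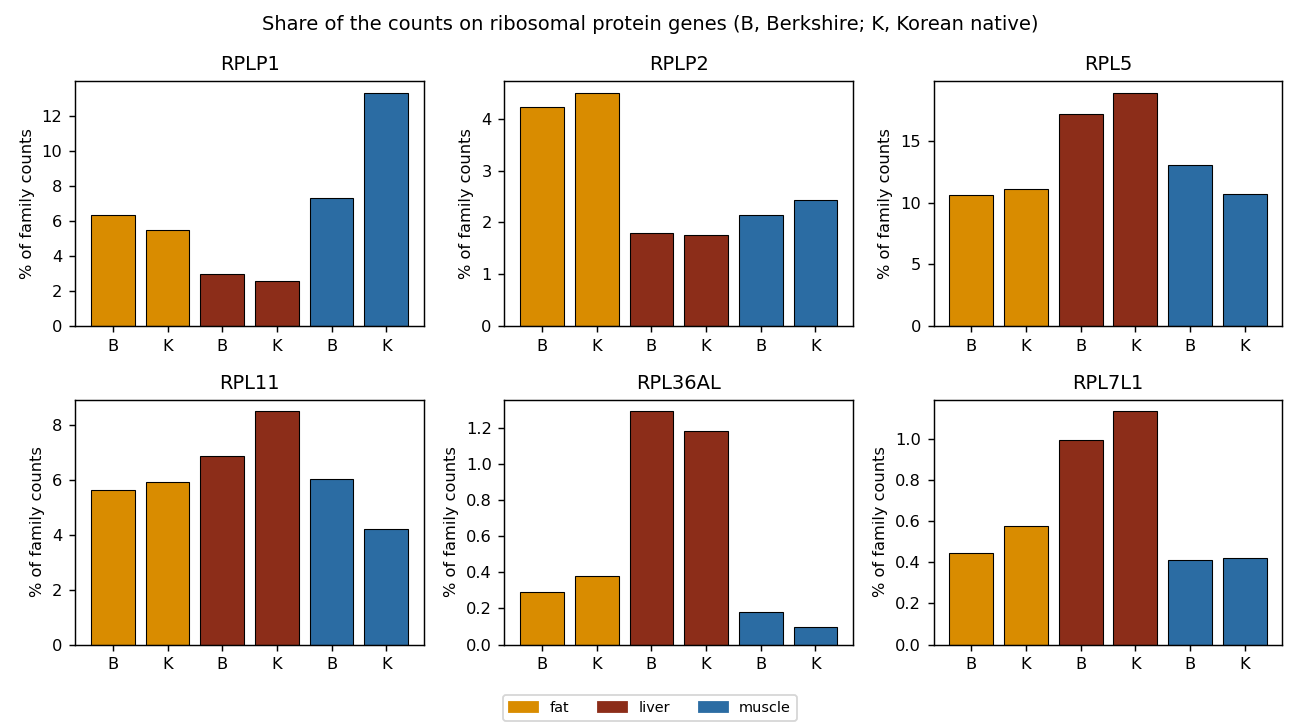
Bars give the percent of all counts on the 28 genes that fell on each of 6 genes, by library (B, Berkshire; K, Korean native; colour, tissue; each panel has its own scale from 0). RPL36AL, RPL7L1, RPL5 and RPL11 have their highest bars in liver, RPLP2 in fat and RPLP1 in Korean native muscle (13.3%).

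The breed comparison over the 3 tissues called 0 members by edgeR, and 0 had an unadjusted p under 0.05. DESeq2 and limma-voom also called 0. Of all genes 0.109% were called, 0.029% higher and 0.0797% lower in Korean native libraries. The coefficient was positive for 26 of 27 members, with a median of 0.25 against 0.02 over all genes. This was not particular to them among the translation lists followed below. It was positive for 38 of 44 mitochondrial ribosomal proteins (median 0.21) and 6 of 6 elongation and termination genes (0.23). For initiation factors it was 17 of 24 (0.13), for assembly and RNA polymerase I genes 16 of 33 (-0.01), and for ribosome parts and partners 2 of 4 (0.01). The members of smallest p were RPL7L1 (0.49 ± 0.24, adjusted p 0.68), RPS9 (0.53 ± 0.30, adjusted p 0.72) and RPS12 (0.42 ± 0.27, adjusted p 0.75), and the negative value belonged to RPL26L1 (-0.08 ± 0.27, adjusted p 0.96). The positive median of the ribosomal protein genes came with the muscle libraries: it was -0.040 without Berkshire muscle and -0.043 without Korean native muscle. Without either muscle library the coefficient rests on fat and liver alone. The closeness of these values was therefore bound to arise and is no support.

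Within muscle, 25 of 27 members were higher in the Korean native library, against 53.7% of 8252 genes with at least 10 CPM. The median log2 ratio was 0.78 against 0.08 over all these genes. There is 1 library a breed, so no test was made. RPLP1, RPS16, RPS28, RPS9 and RPL29 were at least 2-fold higher, where 11% of all genes were, and 0 members were at least 2-fold lower, where 9.34% were. RPLP1 was 3.06-fold, RPS16 2.90-fold and RPS28 2.40-fold higher. RPS9 (ENSSSCG00000029785), which helps keep decoding accurate, had 96.5 CPM in Berkshire and 221 in Korean native muscle. RPL29 (ENSSSCG00000027573) of the large subunit had 171 and 366 CPM in the same order. RPL36AL and RPL26L1 had values slightly below Berkshire muscle, with log2 ratios of -0.11 and -0.07, and RPS4X (0.37) and RPL11 (0.24) were the lowest of the positive ones.

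With total counts the median ratio in muscle was 0.47 against -0.26 over all genes, and 24 of 27 members were higher, against 37% of all genes. RPLP1 (487 and 1202 CPM) and RPS16 (62.0 and 145 CPM) were at least 2-fold apart. Other values moved between these muscle libraries too. From Berkshire to Korean native muscle, the summed skeletal muscle markers were 100022 and 149626 CPM. Of the translation lists followed below, mitochondrial ribosomal proteins summed to 989 and 1566 CPM, and elongation and termination genes to 2814 and 4391 CPM. Initiation factors had 7125 and 9228 CPM, assembly and RNA polymerase I genes 1148 and 1461 CPM, and ribosome parts and partners 1202 and 1714 CPM. The 4 matched macrophage markers of 5 summed to 83.1 and 28.4 CPM, the 3 matched leukocyte markers of 6 to 36.8 and 23.3 CPM, and the 4 adipocyte markers to 523 and 315 CPM. MARCO and MS4A1 had 0 counts in Korean native muscle. Their part in the result was not tested. By TMM-scaled CPM, 22 of 27 members had their highest value of all 6 libraries in Korean native muscle, against 24.7% of all genes, and with total counts 2 did, RPLP1 and RPS28, against 10.9% of all genes.

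Fat and liver showed smaller breed ratios. In fat 16 of 27 members were lower and 11 higher in the Korean native library, where 51.7% of 7994 genes were higher. The median log2 ratio was -0.17 against 0.02 over all these genes, and values ran from -0.53 for RPL38 to 0.32 for RPL7L1. In liver 19 of 27 were higher, against 50.2% of 8357 genes. The median was 0.14 against 0.002 over all these genes, and the highest value was 0.50 for RPL11. In neither tissue was a member 2-fold apart, where 4.15% and 3.42% of all genes were higher and lower in fat and 5.76% and 5.53% in liver. Nor was any 1.5-fold apart with TMM scaling, where 11.3% and 9.32% of all genes were higher and lower in fat and 14.3% and 13.6% in liver. With total counts 21 of 27 members were lower in fat, where 43.8% of all genes were higher. Values then ran from -0.61 to 0.23, with a median of -0.26 against -0.07 over all genes. In liver 19 of 26 were higher with total counts, against 46.1% of all genes, with a median of 0.10 against -0.05. RPL38, known from mouse embryos for its part in translating Hox mRNAs, had 95.5 CPM in the Berkshire fat library and 66.2 CPM in the Korean native one. In liver the 2 matched red cell markers of 3, HBB and ALAS2, summed to 247 CPM in Berkshire and 2129 CPM in Korean native pigs, and the part of such cells in the liver ratios was not tested.

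**Figure D5:**
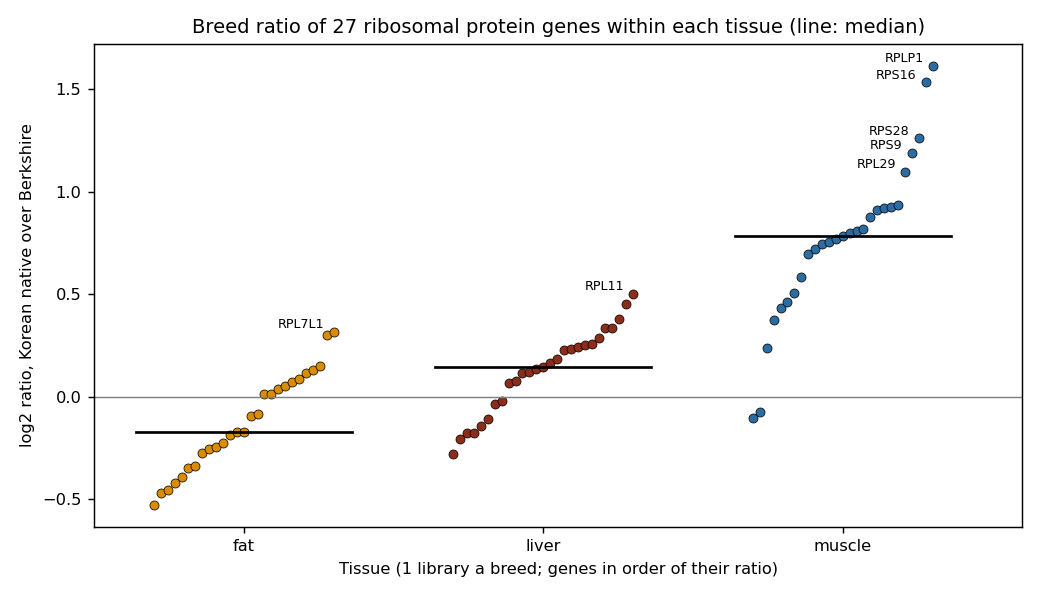
Points give the log2 ratio of TMM-scaled CPM, Korean native over Berkshire, of 27 genes within fat, liver and muscle (prior count of 2), ordered by ratio, with a line at the median. The medians are -0.17, 0.14 and 0.78, and the 5 labelled genes in muscle are at least 2-fold higher in the Korean native library.

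Other genes of translation were followed from lists. FAU, whose product is cut into a ubiquitin-like protein and ribosomal protein S30, had 202 CPM in the Berkshire liver library and 134 CPM in the Korean native one, against 89.9 and 79.2 CPM in fat and 75.8 and 64.4 CPM in muscle. It was the member called among 4 matched ribosome parts and partners, higher in liver than in muscle, where 18.6% of all genes were called higher. RACK1, a scaffold on the small subunit, had 407 and 471 CPM in fat, 402 and 376 in liver, against 476 and 926 in muscle, without a call.

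A list of elongation and termination genes had 6 matched members: EEF1B2, EEF1D and EEF2, the kinase EEF2K, and the termination factors GSPT1 and ETF1. Of these, EEF1B2, EEF1D, EEF2 and EEF2K were lower in liver than in muscle and 0 were higher, against 17.4% and 18.6% of all genes. The called members included EEF2, which moves the ribosome along the mRNA, at 1092 and 971 CPM in liver and 1998 and 2858 in muscle, and EEF1B2, which recharges the tRNA carrier, at 179 and 182 against 317 and 559. EEF2K, which inhibits EEF2, was also higher in muscle than in fat, where 9.95% of all genes were. The median of all 6 between liver and muscle was -1.15 (members of the ribosome -0.77, all genes -0.01). The list of initiation factors had 24 matched genes. It also held the regulators EIF4EBP1 and LARP1 and the poly(A)-binding proteins PABPC1 and PABPC4. Of the 24 genes 8 were lower and 1 higher in liver than in muscle, against 17.4% and 18.6% of all genes. In muscle 6 were higher and 0 lower than in fat, against 9.95% and 6.43% of all genes. The last split became 1 higher and 3 lower with total counts (5.54% and 38.1% of all genes). EIF4G2 had 906 and 963 CPM in liver and 1592 and 1892 in muscle without a call. Of 33 assembly and RNA polymerase I genes 0 were higher and 1, NOP16, lower in liver than in muscle, against 18.6% and 17.4% of all genes.

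The mitochondrial ribosome makes the proteins encoded in mitochondrial DNA. Of 44 of its genes that were tested, 7 were higher and 1 lower in liver than in fat, with a median of 0.51, where 15.2% and 13.5% of all genes were called. Against muscle 4 were higher and 2 lower in liver, where 18.6% and 17.4% of all genes were called, and 26 of 44 had negative values, with a median of -0.11. MRPL38 had 60.0 CPM in the Berkshire liver library and 84.3 CPM in the Korean native one, against 27.9 and 28.5 in fat, and 28.2 and 42.7 in muscle. With total counts 1 was higher and 8 lower in liver than in fat (8.39% and 42% of all genes), and the median was -0.50, against -0.94 over all genes and -1.44 over the cytosolic members. The difference between the lists was not tested.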

How the data were processed

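Total RNA from 6 frozen tissue samples was made into Illumina TruSeq libraries, per the labels' protocols. The submitters' processing notes name TopHat, HTSeq 0.5.3p3 and the build Sscrofa10.2. The files hold whole-number counts per Ensembl gene ID, as the authors deposited them without normalization. The sources used here give no strand setting, counting mode or annotation release, so reads of overlapping and antisense genes may be mixed. The 5 closing entries of each file name no gene and were left out. Among them, non-unique alignments were 14.1% to 20.8% of all entries and reads on no feature 45.9% to 52.5%. The liver libraries had the most non-unique alignments (Berkshire 20.8%, Korean native 17.1%). Muscle libraries had 16.3% and 14.3% in the same breed order, against 14.4% and 14.1% for fat. Reads on no feature were fewest in liver (45.9% and 47.8%). How many reads of either class came from ribosomal protein genes and their processed copies is unknown, so member levels are uncertain. Whether non-unique alignments lowered the members' share in liver was not tested. Symbols came from the supplied table, which named 11804 of 25322 IDs.

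Here, edgeR 4.0.16 (R 4.3.3) fitted tissue and breed to 13810 genes kept by filterByExpr, with TMM factors and a quasi-likelihood test, two-sided. Benjamini-Hochberg adjusted p under 0.05 over all genes was called. SE was taken as log2 difference / sqrt(F). There were 2 residual degrees of freedom, with a common biological coefficient of variation of 29.5%. CPM are TMM-scaled unless said. Breed ratios within a tissue used a prior count of 2 and genes with at least 10 CPM in 1 library. Alternatives were total-count and upper quartile scaling, DESeq2 1.42.0, limma-voom (limma 3.58.1), other filters, other covariates, the family sum as library size, and each library left out. The procedure was tested on simulated counts in which 200 genes were changed, in liver only and in either direction, with no breed effect. Such counts do not test the scaling between tissues, on which the differences from fat depend. Named genes are those called, up to 6 by size in each direction, the 3 of smallest p or largest ratio for breeds, the extremes of mean CPM (of other lists, the highest) and the stalk genes. Further genes, such as RPS27L and NOP16, were named after their values were seen. Counts, sums and medians cover all members, but single results of some are not reported here. Members and lists were chosen with earlier results of these data known.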

Additional observations from a re-analysis of the deposited data

Results flagged for a closer look

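The summed level of the ribosomal protein genes differed between breeds in opposite directions by tissue. The log2 ratio of the TMM-scaled sum, Korean native over Berkshire, was -0.057 in fat, 0.20 in liver and 0.75 in muscle. As a share of counts it was -0.14, 0.15 and 0.44 in the same order. The result was picked because the signs differed between tissues on both scales, so their agreement is no support. In fat the ratio itself was 0.961 on the TMM scale and 0.906 as a share. Each value rests on 1 library a breed, and the difference between tissues was not tested.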

How the results depend on the processing

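No paired analysis was possible because each breed and tissue has 1 library, so no replicate numbers are shared between groups. Breed is itself a term of the tissue model, and without it 2 members were called between liver and fat, 0 between muscle and fat and 8 between liver and muscle. Called members between liver and fat numbered 2, and 19 with total counts, 6 with upper quartile factors, 5 with DESeq2 and 1 with the family sum as library size. Leaving out 1 library gave 0 to 7. Between muscle and fat the count of 0 became 5 with total counts and 0 to 2 without 1 library. Between liver and muscle the count of 7 became 3 with the family sum, and 2 to 12 without 1 library. On the family scale, leaving out 1 library gave 0 to 4 between liver and fat, 0 to 1 between muscle and fat and 1 to 6 between liver and muscle. The breed count over tissues was 0 under each alternative run. Apart from total counts and the family sum, the share of all genes called was not computed for these alternatives. Their counts of members therefore cannot be set beside all genes. In muscle, 5 members at least 2-fold apart became 2 with total counts and 19 at 1.5-fold, all higher in the Korean native library, where 25.5% of all genes were higher and 19.6% lower.

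The share of counts in Berkshire and Korean native fat, liver and muscle became 1.46%, 1.39%, 0.639%, 0.751%, 0.994% and 1.42% without the 20 most abundant other genes, and Korean native muscle then lay above Korean native fat. Without the most abundant member it was 1.04%, 0.928%, 0.341%, 0.370%, 0.578% and 0.782%. Single log2 values were followed over the alternatives for some members only. Among these, RPL4 in liver over fat changed sign with the family sum (0.067, from -0.29). With total counts RPL7L1 in liver over fat (-0.30, from 0.71) and RPL27 in muscle over fat (-0.020, from 0.92) did so. Over breeds, RPLP1 changed sign without Berkshire muscle (-0.15) or Korean native muscle (-0.15, from 0.42), and RPL26L1 without Berkshire fat (0.11) or Korean native fat (0.11, from -0.08). Within each such pair both fits draw the breed difference from the same tissues, so the values were bound to be close. Without 1 library these breed values ran from -0.15 to 0.80 for RPLP1 and from -0.26 to 0.11 for RPL26L1. None of these was called. Over the 27 tested members, total counts lowered the number of positive values from 8 to 1 in liver over fat. It fell from 22 to 1 in muscle over fat and from 26 to 18 over breeds, and stayed at 3 in liver over muscle. Changes with total counts and the family sum follow from the scaling. Calls were both gained and lost without a library, where fewer residual degrees of freedom remain than in the full fit, and the cause was not tested. RPS21, RPL26L1 and RPL36AL rest on 53 to 426 counts a library.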
